A study of Mus musculus with 24 samples.

Results

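The nuclear-encoded genes of the mitochondrial respiratory chain were followed across the genotypes of a Ddx4 knock-in in mouse testis germ cells. Members were taken by gene symbol, namely the Nduf genes of complex I, Sdha to Sdhd of complex II, the Uqcr genes of complex III, Cox4 to Cox8 of complex IV and the Atp5 genes of ATP synthase. Symbols containing -ps were left out, and a mean of at least 1 TPM (a level normalised for transcript length and library total) over the round spermatid libraries was required. Of 55364 genes listed in the round spermatid files, 97 symbols matched, 8 of these carried -ps and 9 fell under the threshold, which left 80 members on 19 chromosomes. Grouped by symbol, they are 38 Nduf genes counted under complex I (7 core and 31 others), 4 of complex II, 8 of complex III, 13 of complex IV, 16 of ATP synthase, and Atp5s, whose product is not a subunit of the enzyme. Among the Nduf genes, Ndufa4 is known as a subunit of complex IV in spite of its name, and Ndufa4l2 is its paralog rather than a complex I subunit. Just outside the threshold stood Cox7b with 0.628 TPM, and just inside stood Ndufb11 with 5.25 and Ndufa1 with 6.96 TPM. Ndufb1-ps, with 94.5 TPM the most abundant of the names left out, is a subunit gene in spite of its suffix.

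Enriched fractions of round spermatids, the haploid germ cells made by meiosis, came from testes digested in 2 steps. Their RNA was sequenced from DDX4 homozygous knock-in, DDX4 heterozygous knock-in and WT animals (n = 2 libraries each). A second kind of RNA, called CB in the labels without the term being spelled out and described only as from germ cells, came from DDX4 homozygous knock-in and DDX4 heterozygous knock-in animals (n = 3 each), and wild-type CB RNA was not analysed here. The labels give no more of the knock-in allele than its gene and dosage, and whether the libraries of a group came from different animals is not stated. Each p-value therefore reflects the spread of these libraries, which may be technical. Ddx4 encodes an RNA helicase found in germ granules. In round spermatid RNA it stood at 121 and 130 CPM (counts scaled to a common effective library size) in homozygotes, at 406 and 403 in heterozygotes, and at 443 and 521 in wild type.

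As background, complexes I and II pass electrons from NADH and succinate to ubiquinone, complex III passes them on to cytochrome c, and complex IV hands them to oxygen. Complexes I, III and IV pump protons, and ATP synthase uses the gradient. Most subunits are encoded in the nucleus and imported, and male germ cells replace several of the widely used forms by testis forms, among them Cox6b2, Cox7b2 and Cox8c of complex IV and the cytochrome c gene Cyct. Round spermatids rearrange their mitochondria ahead of the sheath they form around the sperm tail.

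Totals ran between 15312153 and 24886664 counts per round spermatid library and between 14205962 and 16474872 per CB library. The members are short, with a median transcript of 671 bases against 1734 bases for all genes at 1 TPM or more, and 59 of the 80 lay under 1000 bases. That bears on the wild-type comparisons, since transcripts under 1000 bases took 11.1% to 12.4% of the counts in the homozygous and heterozygous libraries, against 19.1% in library 1 of wild type and 11.4% in library 2. In CB RNA such transcripts took 2.2% to 2.7%. The chi-square over degrees of freedom between the libraries of a group, near 1 for counting noise alone, was 3.88 in the homozygous, 2.55 in the heterozygous and 107.5 in the wild-type pair. The main edgeR comparisons of the members with wild type are therefore given with and without library 1. Without it wild type is a single library, and the spread comes from the homozygous and heterozygous pairs alone. Calls from such a fit are not replicated in wild type. The medians of other gene lists, the DESeq2 calls and the marker calls against wild type rest on both wild-type libraries.

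In round spermatid RNA the members had a median of 107 TPM, and 44 of the 80 stood at 100 TPM or more. The rule took members by these same values at a threshold of 1 TPM, and no median over all genes was set beside them. Complex I ranged from Ndufb11 with 5.25 TPM to Ndufa7, an accessory subunit gene, with 472.5 TPM, around a median of 89.0. Complex II was the lowest as a group, with a median of 47.5 TPM, a lowest value of 30.3 for the membrane anchor gene Sdhd and a highest of 146 for the iron-sulfur subunit gene Sdhb. Complex III had a median of 196 TPM, from Uqcr11 with 42.0 to Uqcrq with 831, both genes of small subunits. Complex IV had the highest median, 331 TPM, from Cox8a with 14.7 to Cox8c with 1448. ATP synthase had a median of 164 TPM, from Atp5k with 27.8 to Atp5h, a gene of the peripheral stalk, with 492. Among all genes Cox8c ranked 60, Cox6b2 ranked 114 and Uqcrq ranked 154 by mean round spermatid TPM.

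**Figure D1:**
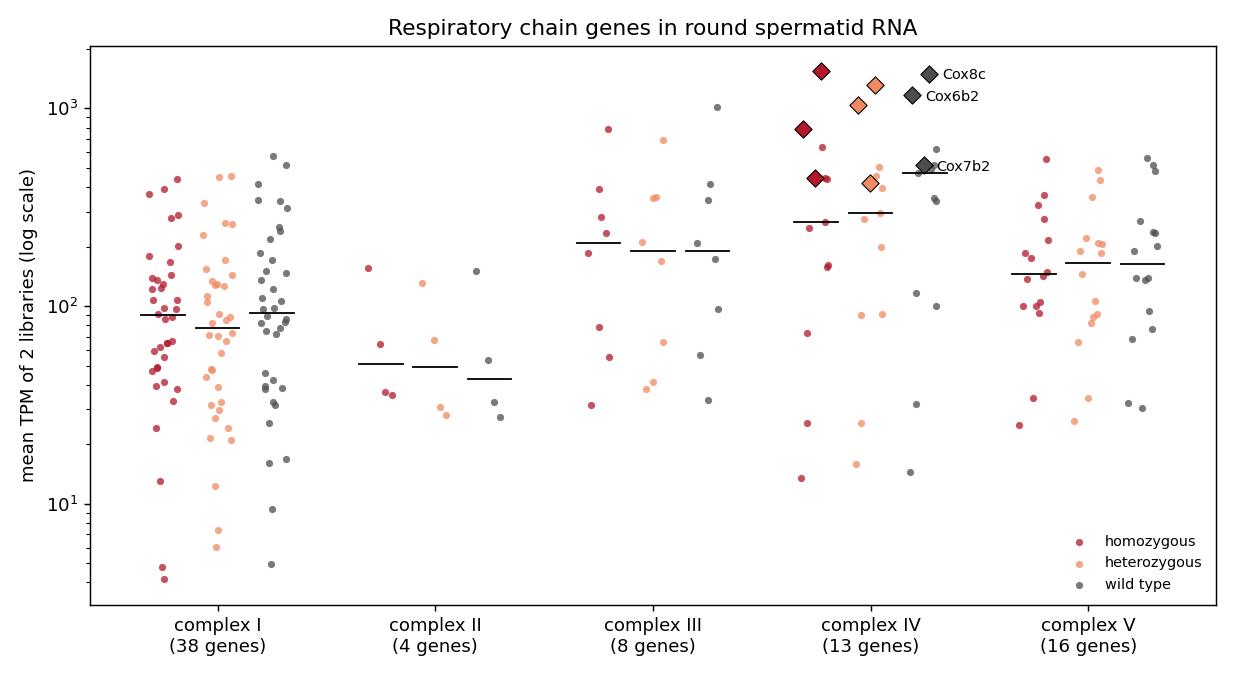
Mean TPM of each respiratory chain gene in round spermatid RNA (log scale), by complex and genotype (homozygous, heterozygous, wild type, 2 libraries each); points are genes, bars are medians and diamonds are testis forms. Complex IV holds the highest genes, led by Cox8c at 1448 TPM over all round spermatid libraries, and complex II holds the lowest median.

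Summed over the members, the homozygous libraries gave the respiratory chain 1.52% and 1.50% of all TPM, against 1.41% and 1.50% in heterozygotes and 2.15% and 1.40% in wild type. The mean share was 1.51% ± 0.0168 in homozygotes, 1.45% ± 0.0668 in heterozygotes and 1.78% ± 0.535 in wild type (SD, n = 2 each), so the genotypes were not separated and only wild-type library 1 stood high. Complex IV took the largest part, 0.523% in homozygotes, 0.512% in heterozygotes and 0.623% in wild type, and complex I took 0.449%, 0.427% and 0.545% in the same order of genotypes. ATP synthase took 0.298%, 0.293% and 0.340%, complex III 0.204%, 0.192% and 0.235%, and complex II 0.0292%, 0.0258% and 0.0263%. In CB RNA the members took 0.448% ± 0.0152 of TPM in homozygotes and 0.410% ± 0.0527 in heterozygotes (SD, n = 3 each). The heterozygous CB libraries had 0.350%, 0.432% and 0.449%, with the lowest value in library 1.

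Relative to round spermatid RNA, CB RNA held less of nearly every member. The median of a member's CB level was 27.9% of its round spermatid level, both in TPM, and the median member stood at 34.2 TPM in CB RNA. By complex the CB medians were 26.2 TPM for I, 29.8 for II, 44.7 for III, 67.5 for IV and 36.0 for ATP synthase. Only 5 members stood higher in CB RNA, namely Sdha, which encodes the flavoprotein of complex II, Ndufs1, the largest core subunit gene of complex I, the ATP synthase genes Atp5a1 and Atp5k, and Cox8a. Members under 600 bases had a median log2 ratio of CB to round spermatid level of -2.07 (32 genes), and members of 1000 bases or more had -1.20 (21 genes). No ratio over all genes was set beside these values, so they cannot set the members apart from other genes. Over all genes, transcripts under 1000 bases took 2.2% to 2.7% of the counts in CB RNA and 11.1% to 19.1% in round spermatid RNA. The levels of the 2 kinds were not tested against each other, because kit, input and the labelled cell type differ between the kinds of library and cannot be told apart.

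The testis forms were the main forms in every library. Cox8c made up 99.1% ± 0.0521 of the summed TPM of Cox8c and Cox8a in homozygous round spermatids, 98.8% ± 0.267 in heterozygous and 99.0% ± 0.0860 in wild-type ones (SD, n = 2 each). Cox6b2 made up 96.8% ± 0.264 of Cox6b2 and Cox6b1 in homozygotes, 97.6% ± 0.226 in heterozygotes and 97.5% ± 1.08 in wild type. Cox7b2 made up 99.9% of Cox7b2 and Cox7b in each genotype. Outside the members, Cyct made up 93.7%, 92.1% and 93.1% of cytochrome c TPM in homozygous, heterozygous and wild-type round spermatids. Slc25a31, the ADP/ATP carrier gene of sperm, made up 94.3%, 93.6% and 93.3% against Slc25a4, and Pdha2, the autosomal testis form of pyruvate dehydrogenase E1 alpha, 99.2%, 99.1% and 99.4% against the X-linked Pdha1. Forms of other tissues were nearly absent from round spermatid RNA. There the muscle form Cox6a2 reached at most 0.0727% against Cox6a1. The muscle form Cox7a1 was listed at 0 in all round spermatid libraries, and the lung form Cox4i2 at 0 in the homozygous and heterozygous ones.

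The same forms led in CB RNA. Cox8c made up 95.6% in homozygotes and 95.4% in heterozygotes, Cox6b2 97.4% and 97.7%, Cox7b2 99.4% and 99.2%, Cyct 88.4% and 85.3%, Slc25a31 84.4% and 83.2%, and Pdha2 96.8% and 98.3%. The muscle form Cox6a2 reached 2.97% ± 2.13 of the Cox6a pair in homozygotes and 4.34% ± 1.42 in heterozygotes (SD, n = 3 each). Cox7a1 had 0.82 TPM in homozygous CB library 1 and 1.51 in heterozygous CB library 1, and was listed at 0 in the other CB libraries.

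**Figure D2:**
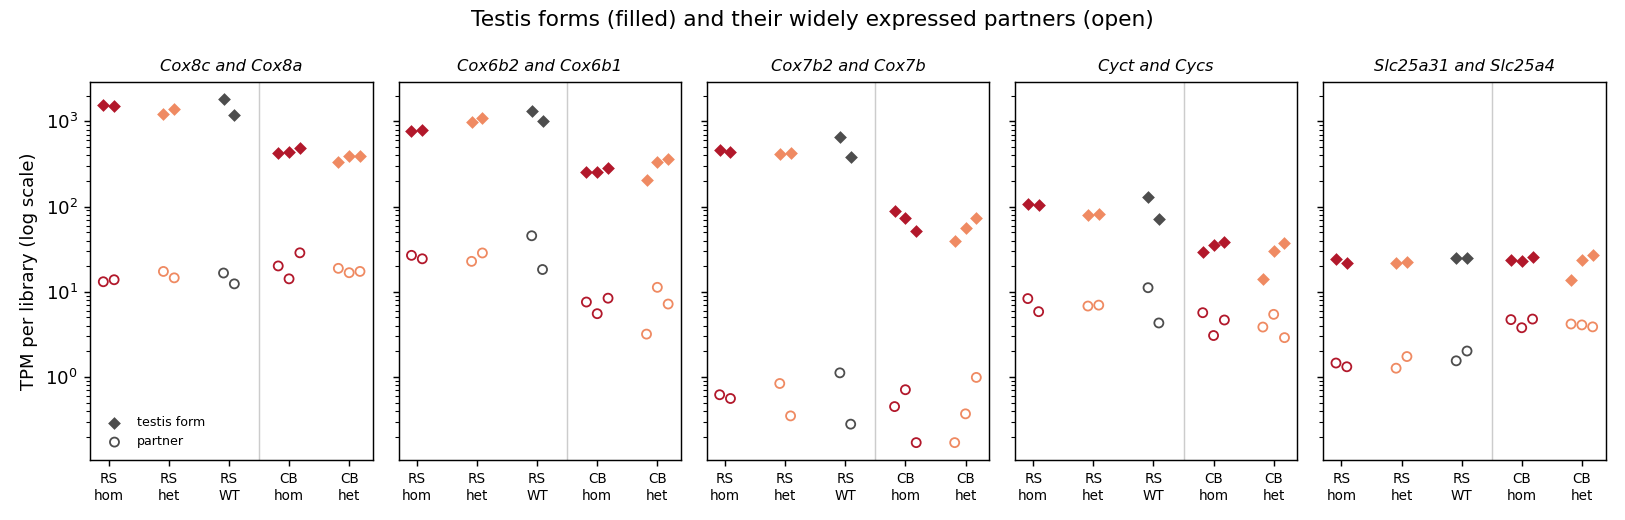
TPM per library (log scale) of 5 testis forms, drawn as filled diamonds, and of their widely expressed partners, drawn as open circles, in round spermatid (RS) and CB RNA by genotype. The testis form lies above its partner in every library, by the widest margin for Cox7b2 and Cox7b; values listed at 0 are not drawn.

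By library, Cox8c (ENSMUSG00000043319, chromosome 12, 102899306 to 102900534 in GRCm38.p6) had 1563 and 1515 TPM in homozygotes, 1214 and 1402 in heterozygotes, and 1807 and 1188 in wild type. Cox6b2 (ENSMUSG00000051811, chromosome 7, 4751792 to 4753094) had 775 and 797 TPM in homozygotes, 992 and 1086 in heterozygotes, and 1326 and 1006 in wild type. Cox7b2 (ENSMUSG00000049387, chromosome 5, 71442823 to 71548205) had 457 and 436 TPM in homozygotes, 409 and 427 in heterozygotes, and 650 and 381 in wild type. Wild-type library 1 was the highest of the 6 for all 3 genes, and only for Cox6b2 did the homozygous libraries lie below all the others.

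The start-site windows of the Cox6b pair are shown because the testis form and its partner differ so widely in level. Those of Ndufs8 and Ndufb3 are shown because these genes return in the genotype comparisons, and that of Uqcrc1 as an example of a window that holds NRF1. Each is 300 bases, from 250 before to 50 after the start site, 5′ to 3′ on the gene's strand, from RefSeq on GRCm38.p6. Capitals mark a match to a motif that was searched on both strands, GABP/ETS (CCGGAAG) or NRF1 (CGCATGCG), and a window with no capitals holds none of the motifs named here.
Cox6b2 (chr7:4753045-4753344, minus strand): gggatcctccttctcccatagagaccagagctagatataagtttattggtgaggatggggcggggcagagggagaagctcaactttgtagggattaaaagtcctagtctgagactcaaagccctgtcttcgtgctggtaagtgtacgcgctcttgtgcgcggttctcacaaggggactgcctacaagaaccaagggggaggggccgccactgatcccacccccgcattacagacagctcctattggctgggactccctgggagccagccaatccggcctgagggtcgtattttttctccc
Cox6b1 (chr7:30626065-30626364, minus strand): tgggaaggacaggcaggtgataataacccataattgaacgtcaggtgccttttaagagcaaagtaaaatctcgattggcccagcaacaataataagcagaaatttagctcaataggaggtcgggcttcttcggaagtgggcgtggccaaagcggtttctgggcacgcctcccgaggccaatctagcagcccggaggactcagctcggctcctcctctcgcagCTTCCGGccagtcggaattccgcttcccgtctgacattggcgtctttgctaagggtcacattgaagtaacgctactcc
Ndufs8 (chr19:3912725-3913024, minus strand): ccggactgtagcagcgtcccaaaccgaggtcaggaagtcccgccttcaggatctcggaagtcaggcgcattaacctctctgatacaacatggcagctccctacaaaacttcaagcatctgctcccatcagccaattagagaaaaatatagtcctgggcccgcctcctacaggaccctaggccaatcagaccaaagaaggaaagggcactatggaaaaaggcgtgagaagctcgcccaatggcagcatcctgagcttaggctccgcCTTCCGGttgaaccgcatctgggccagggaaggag
Ndufb3 (chr1:58586147-58586446, plus strand): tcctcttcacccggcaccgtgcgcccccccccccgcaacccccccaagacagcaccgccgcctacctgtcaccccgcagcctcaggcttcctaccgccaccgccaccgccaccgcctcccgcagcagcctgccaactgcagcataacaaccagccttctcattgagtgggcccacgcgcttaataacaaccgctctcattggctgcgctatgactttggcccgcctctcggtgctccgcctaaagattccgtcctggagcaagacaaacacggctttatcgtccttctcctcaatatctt
Uqcrc1 (chr9:108936398-108936697, plus strand): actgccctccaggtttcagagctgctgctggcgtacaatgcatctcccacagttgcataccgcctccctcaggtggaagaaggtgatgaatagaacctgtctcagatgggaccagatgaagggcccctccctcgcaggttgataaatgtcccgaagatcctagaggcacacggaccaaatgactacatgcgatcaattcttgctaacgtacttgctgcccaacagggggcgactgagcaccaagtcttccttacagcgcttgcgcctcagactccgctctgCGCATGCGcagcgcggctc
Of the 80 members, 65 had such a window, 70 windows in all, and they were set against 32851 windows of 27025 genes. GABP/ETS was found in 22.9% of the members' windows and 8.86% of all windows, and NRF1 in 12.9% and 1.87%. YY1 (AAGATGG) was found in 15.7% of the members' windows and 6.34% of all windows, ERR (AAGGTCA) in 11.4% and 4.72%, and CRE (TGACGTCA) in 5.71% and 1.79%. The members' windows were 58.0% G and C, against 53.8% over all windows. The motifs were searched one by one, so matches may overlap. The difference in share was not tested, and a match is a description of the sequence only.

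Setting homozygous against wild-type round spermatids asks which genes the knock-in allele changes there. Of the 80 members 1 rose, Uqcrc2, which encodes core protein 2 of complex III, where 2.86% of all 17809 genes were called and 2.39% were called higher (edgeR quasi-likelihood test, Benjamini-Hochberg adjusted p under 0.05, used throughout unless another tool is named). Uqcrc2 (ENSMUSG00000030884, chromosome 7, 120635189 to 120659523) had 78.7 and 73.0 CPM in homozygotes, 40.4 and 40.9 in heterozygotes, and 39.5 and 42.0 in wild type. Both homozygous libraries lay above all the others, while heterozygotes and wild type overlapped. The log2 change was 0.90 (SE 0.127, adjusted p = 0.0264), 1.86-fold. It ranged from 0.85 to 0.96 over the 12 alternatives, of which 6 kept the call, with adjusted p-values from 2.57e-07 to 0.333. The call was lost with the replicate number as a block (adjusted p = 0.0686), in a fit of the 4 homozygous and wild-type libraries (0.130), and without homozygous library 1 (0.333) or 2 (0.280) or heterozygous library 1 (0.142) or 2 (0.146).

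Among the other members none passed. Altogether 14 had a log2 change above 0 and 66 below it, with a median of -0.48 against -0.00 over all genes tested. Of these members 17 stood at an unadjusted p under 0.05, 4 higher and 13 lower. No share of all genes was taken at that unadjusted threshold, for this count or the later ones like it. These counts therefore cannot set the members, or the gene lists below, apart from other genes. DESeq2 called 5, where it called 7.83% of all genes. Uqcrc2 and Ndufb3 were higher in DESeq2 (5.02% of all genes) and Cox7c, Ndufa5 and Cox6b2 lower (2.81%). Without the filter on low counts edgeR called 21 members, 3 higher and 18 lower (5.81% of all genes, 3.37% higher and 2.44% lower). With the trend in transcript length removed it called 14, 10 higher and 4 lower (13.7% of all genes, 7.67% higher and 5.99% lower). The lowest values were -1.87 for Ndufa1 (adjusted p = 0.257), -1.60 for Cox6c (0.222) and -1.52 for Atp5k (0.389), none past the edgeR threshold. Without wild-type library 1 they were -0.32 for Ndufa1, -0.02 for Cox6c and 1.06 for Atp5k. By complex the median was -0.47 for complex I, 0.13 for complex II, -0.88 for complex III, -0.72 for complex IV and -0.24 for ATP synthase, and without wild-type library 1 it was -0.00, 0.17, 0.09, 0.08 and 0.11 in the same order. The homozygous libraries lay above both wild-type ones for 9 members and below both for 25, where 26.7% and 25.0% of all genes did so.

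This downward shift went with transcript length and with 1 library. The change rose with length across the 80 members (Spearman rho 0.71, genes within the same libraries, not independent replicates). Members under 600 bases had a median of -1.07 and members of 1000 bases or more -0.03. Without wild-type library 1 the median of the members was 0.08 and rho was 0.14, and the same length classes had medians of 0.03 and 0.12. The fit then held a single wild-type library, so its calls are not replicated in wild type. That fit called 24 members, 17 higher and 7 lower, where 26.4% of all genes were called, 13.3% higher and 13.1% lower. Higher were Ndufb3 (1.34), Ndufs8 (1.15), Ndufc2 (1.08), Atp5f1 (0.97), Uqcrc2 (0.85), Cox7a2l (0.71), Ndufb6 (0.70), Ndufs6 (0.68), Uqcrfs1 (0.55), Ndufb9 (0.48), Atp5j2 (0.43), Cox4i1 (0.42), Atp5h (0.39), Ndufs3 (0.37), Atp5o (0.35), Cox8c (0.33) and Cox7a2 (0.24). Lower were Cox6b2 (-0.41), Ndufs1 (-0.40), Atp5j (-0.34), Ndufs5 (-0.34), Ndufa9 (-0.33), Ndufa4l2 (-0.31) and Atp5b (-0.25). Without wild-type library 2 it called 70, 6 higher and 64 lower, where 45.1% of all genes were called, 24.2% higher and 20.9% lower, with a median of -0.83. Prm1, a protamine gene of later spermatids, stood high in wild-type library 1, with 1309 and 1207 CPM in homozygotes, 1212 and 1491 in heterozygotes, and 6381 and 1307 in wild type. The part of cell stage or of length in these changes was not tested, and in bulk RNA fewer cells of a type and less RNA per cell cannot be told apart.

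**Figure D3:**
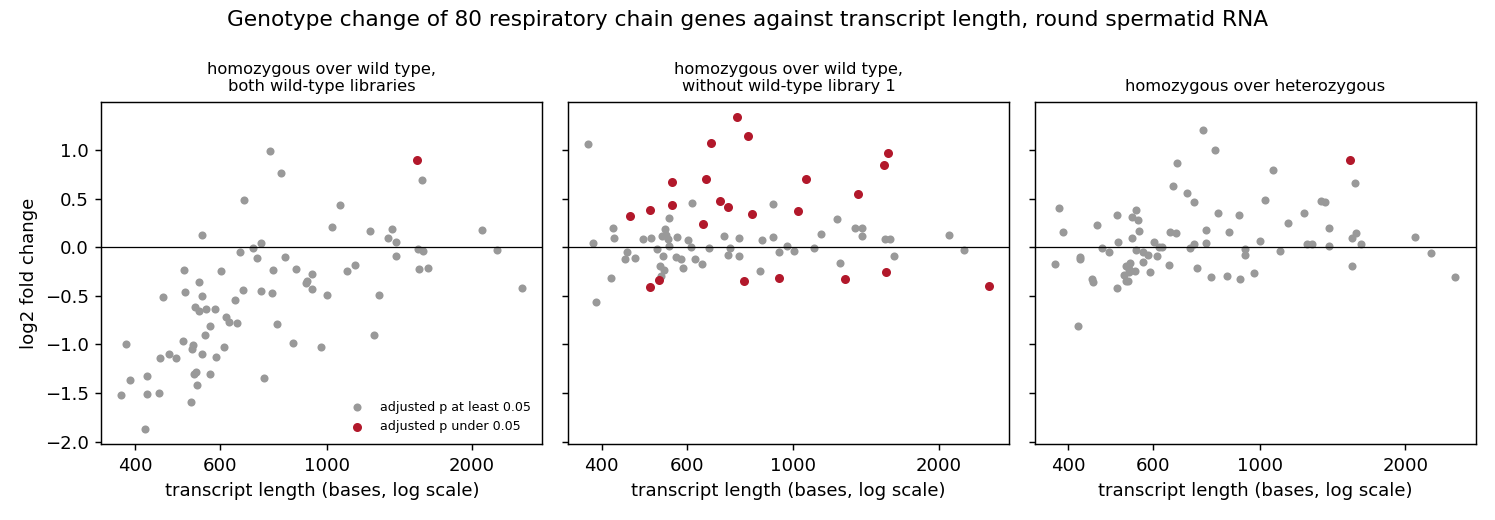
Log2 change of 80 respiratory chain genes against transcript length (bases, log scale) in round spermatid RNA, for homozygous over wild type with both wild-type libraries, the same without wild-type library 1, and homozygous over heterozygous; red points passed the test. The median below 600 bases is -1.07 in the left panel (rho 0.71) and 0.03 in the middle one (rho 0.14), which holds a single wild-type library. In the right panel it is -0.11 (rho 0.32).

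Heterozygous against wild-type round spermatids gave no member past the threshold, as it gave 0.0% of all genes with edgeR. Here 4 members stood at an unadjusted p under 0.05, all lower, and DESeq2 also called 0 members, where it called 0.0281% of all genes. The log2 change was above 0 for 4 members and below 0 for 76, with a median of -0.55. The lowest were Ndufb4c with -1.53, Ndufa3 with -1.40 and Atp5e with -1.38, and the highest were Sdha with 0.07 and Ndufa10 and Atp5f1 with 0.04 (adjusted p at least 0.519). Without wild-type library 1 Ndufb4c stood at -0.73, Ndufa3 at -0.37 and Atp5e at 0.21. Here too, leaving out either wild-type library left a single one, so calls from those fits are not replicated in wild type. Ndufb4c is a copy of Ndufb4, so its reads may be split between them. Heterozygotes lay above both wild-type libraries for 2 members and below both for 26, where 22.5% and 22.1% of all genes did so. Without wild-type library 1 the median was 0.02, and 1 member passed, the complex I gene Ndufa9 with -0.36 (adjusted p = 0.0254 in edgeR), where 0.863% of all genes were called and 0.477% were called lower. Without wild-type library 2 the median was -0.91 and 70 members passed, all lower, where 42.0% of all genes were called and 20.5% were called lower.

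Homozygous against heterozygous round spermatids did not involve wild-type library 1 except through the shared estimate of spread. Uqcrc2 was again the 1 member called, where 1.73% of all genes were called and 1.36% called higher, with a log2 change of 0.90 (SE 0.127, adjusted p = 0.0337), 1.87-fold. Its change ranged from 0.84 to 0.95 over 12 alternatives, 7 of which kept the call, with adjusted p-values from 3.19e-08 to 0.429. The call was lost under the replicate block (0.0868), without homozygous library 1 (0.423) or 2 (0.348), and without heterozygous library 1 (0.429) or 2 (0.413). The long Uqcrc2 transcript of 1896 bases, ENSMUST00000033176, had 49.5 and 46.3 TPM in homozygotes, 27.3 and 25.5 in heterozygotes, and 22.6 and 27.1 in wild type. A transcript of 832 bases, ENSMUST00000123704, had 28.4 and 27.5 TPM in homozygotes, 10.4 and 15.9 in heterozygotes, and 0 and 12 in wild type, so both parts of the gene's level stood highest in homozygotes.

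Across all 80 members the homozygous change against heterozygotes was above 0 for 44 and below 0 for 36, with a median of 0.03. At an unadjusted p under 0.05 stood 9, of which 8 were higher, and DESeq2 called 4, where it called 4.42% of all genes and 3.03% as higher. These 4 were Ndufb3 (1.20), Ndufs8 (1.00), Uqcrc2 (0.89) and Cox7a2l (0.78), all higher. Without the filter on low counts edgeR called 5, all higher (3.13% of all genes, 2.16% higher). With the length trend removed it called 12, 11 higher and 1 lower (10.0% of all genes, 6.01% higher and 4.0% lower). Homozygotes lay above both heterozygous libraries for 28 members and below both for 21, where 32.6% and 32.0% of all genes did so.

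The members with the highest changes sit in different complexes. Ndufb3 (ENSMUSG00000026032, chromosome 1, 58586397 to 58595964) encodes an accessory subunit of the membrane arm of complex I. It had 25.7 and 20.5 CPM in homozygotes, 11.2 and 8.78 in heterozygotes, and 14.3 and 9.13 in wild type. Its homozygous libraries were the highest of the 6, 2.31-fold above heterozygotes (log2 1.21, SE 0.270, adjusted p = 0.0956).

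Ndufs8 (ENSMUSG00000059734, chromosome 19, 3908863 to 3912774) encodes a core iron-sulfur subunit of complex I. It had 27.3 and 26.0 CPM in homozygotes, 13.7 and 12.8 in heterozygotes, and 19.3 and 12 in wild type. The homozygous libraries again lay above all the others, 2.01-fold above heterozygotes (log2 1.01, SE 0.241, adjusted p = 0.112). Ndufc2, another membrane-arm gene of complex I, had 17.1 and 16.0 CPM in homozygotes, 8.73 and 9.37 in heterozygotes, and 16.0 and 7.81 in wild type (1.83-fold over heterozygotes, adjusted p = 0.257). Its wild-type library 1 reached the homozygous level.

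Cox7a2l (ENSMUSG00000024248, chromosome 17, 83501917 to 83514333) encodes a factor that joins complexes III and IV in supercomplexes. It had 99.7 and 99.0 CPM in homozygotes, 57.8 and 56.6 in heterozygotes, and 86.6 and 60.7 in wild type, 1.74-fold higher in homozygotes than in heterozygotes (log2 0.80, SE 0.186, adjusted p = 0.106). Atp5f1, the gene of subunit b in the peripheral stalk of ATP synthase, had 153 and 148 CPM in homozygotes, 90.4 and 99.8 in heterozygotes, and 109 and 76.3 in wild type (log2 0.66, adjusted p = 0.155). For both genes the homozygous libraries lay above every other one. Cox4i1, the widely used subunit 4 of complex IV, had 221 and 215 CPM in homozygotes, 156 and 159 in heterozygotes, and 260 and 163 in wild type (log2 0.47 over heterozygotes, adjusted p = 0.349), and here wild-type library 1 lay highest.

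Cox6b2 ran the other way. It had 124 and 123 CPM in homozygotes, 155 and 176 in heterozygotes, and 317 and 164 in wild type. The homozygous libraries were the lowest of the 6, with log2 changes of -0.42 against heterozygotes (SE 0.292, adjusted p = 0.547) and -0.96 against wild type (SE 0.294, adjusted p = 0.139). Cox8c, with 186 and 178 CPM in homozygotes, 141 and 170 in heterozygotes, and 374 and 145 in wild type, showed no such order (log2 0.23 over heterozygotes, adjusted p = 0.839). Cox7b2, with 86.4 and 81.2 CPM in homozygotes, 75.5 and 81.5 in heterozygotes, and 191 and 73.3 in wild type, overlapped between genotypes (log2 0.10 over heterozygotes, adjusted p = 0.938).

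**Figure D4:**
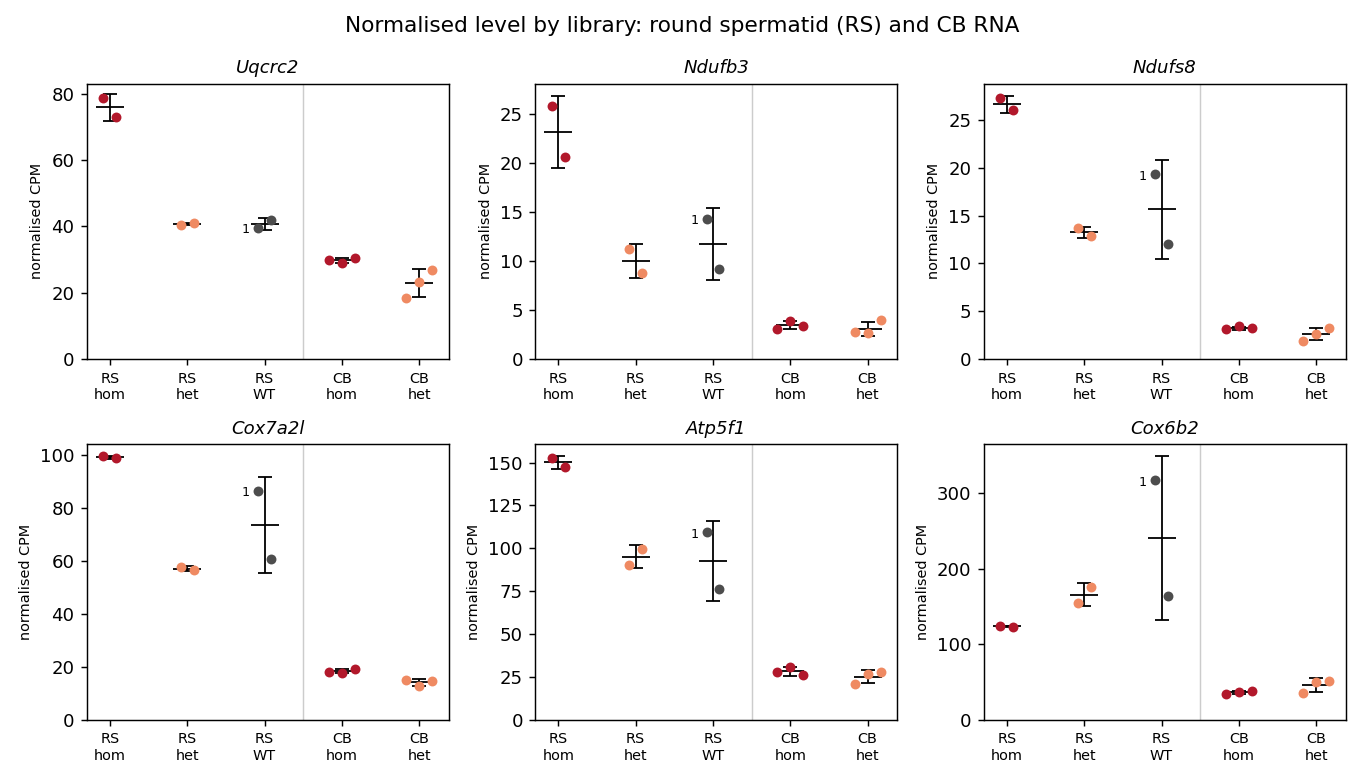
Normalised CPM per library of 6 respiratory chain genes in round spermatid (RS) and CB RNA by genotype, with the mean (long bar) and 1 SD; the digit marks wild-type round spermatid library 1. The homozygous round spermatid libraries lie above the heterozygous ones in every panel but that of Cox6b2, where they are the lowest of the round spermatid libraries.

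When only the 4 homozygous and heterozygous libraries were fitted, the estimate of spread was smaller and 35 members passed (43.8%), where 32.3% of all genes did. Of these 22 were higher (27.5%, against 16.7% of all genes) and 13 were lower (16.3%, against 15.6%). No member passed when any 1 of those 4 libraries was left out of the fit with wild type, whereas 35 passed without wild-type library 1 (30.1% of all genes) and 35 without wild-type library 2 (29.2%). Complex II had 3 of 4 members higher and 0 lower, namely Sdhc (0.47) and Sdhd (0.35), both membrane anchors, and Sdhb (0.25). Complex III had 3 of 8 higher, Uqcrc2 (0.90), the Rieske iron-sulfur protein gene Uqcrfs1 (0.47) and the core protein 1 gene Uqcrc1 (0.15), and 1 lower, the small subunit gene Uqcr10 (-0.35). Of 7 core genes of complex I, Ndufs8 (1.00) and Ndufs3 (0.48) were higher and Ndufs1 (-0.31) lower. Of the other 31 Nduf genes 7 were higher, led by Ndufb3 (1.20), Ndufc2 (0.87), Ndufb6 (0.63) and Ndufb9 (0.56), and 5 were lower, with log2 changes of -0.34 to -0.21, including Ndufs5, Ndufa5 and Ndufb4.

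In that fit complex IV had 3 of 13 members higher, Cox7a2l (0.79), Cox4i1 (0.47) and Cox8c (0.23), and 4 lower, Cox6b2 (-0.42), Cox5b (-0.29), Cox6c (-0.28) and Cox5a (-0.18). ATP synthase had 4 of 16 higher, namely Atp5f1 (0.66), the c-ring gene Atp5g2 (0.38), the OSCP gene Atp5o (0.35) and Atp5h (0.33). It had 2 lower, the gene of coupling factor 6 in the peripheral stalk, Atp5j (-0.31), and Atp5b (-0.19), which encodes the catalytic beta subunit. Members called higher had a median transcript of 812 bases and those called lower 646 bases.

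In CB RNA 78 members passed the filter on low counts, Ndufa1 and Ndufb11 being left out. None was called between homozygotes and heterozygotes by edgeR, which called 1.72% of all 19335 genes, and none by DESeq2, which called 3.46%. At an unadjusted p under 0.05 stood 5 members, 2 higher and 3 lower. Without the filter on low counts 2 were called, Atp5e and Ndufa7, both lower, where 2.2% of all genes were called and 0.977% called lower. The log2 change was above 0 for 40 and below 0 for 38, with a median of 0.02, and the homozygous libraries lay above all heterozygous ones for 4 members and below for 5, where 11.5% and 9.78% of all genes did so. Uqcrc2 had 30.0, 28.8 and 30.3 CPM in homozygotes and 18.5, 23.3 and 27.0 in heterozygotes, so every homozygous CB library lay above every heterozygous one, by 1.30-fold (log2 0.37, SE 0.142, adjusted p = 0.255). Cox7a2l had 18.2, 17.7 and 19.3 CPM in homozygotes and 15.2, 12.6 and 14.7 in heterozygotes, again without overlap, 1.30-fold higher (log2 0.38, SE 0.127, adjusted p = 0.193).

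The lowest changes in CB RNA were those of Atp5e and Ndufa7. Atp5e, the gene of the epsilon subunit of ATP synthase (ENSMUSG00000016252, chromosome 2, 174461075 to 174464101), had 2.85, 2.14 and 2.01 CPM in homozygotes and 3.65, 4.31 and 4.83 in heterozygotes (log2 -0.87, SE 0.231, adjusted p = 0.102). Ndufa7 had 6.37, 5.93 and 5.95 CPM in homozygotes and 12.6, 8.35 and 7.99 in heterozygotes (log2 -0.66, SE 0.197, adjusted p = 0.139), and Ndufb2 followed with -0.51 (adjusted p = 0.268). Atp5e and Ndufa7 did not overlap between genotypes, although neither passed the test. Cox6b2 had 34.6, 37.0 and 38.5 CPM in homozygotes and 34.9, 50.2 and 51.6 in heterozygotes (log2 -0.31, SE 0.149, adjusted p = 0.375), overlapping through heterozygous library 1.

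Heterozygous CB library 1 stood apart from its group, with a chi-square over degrees of freedom of 33.5 and 33.6 against the other two, which differed from each other by 5.95. Without it edgeR called 4 members, Cox7a2l higher (0.42) and Atp5e (-0.98), Cox6b2 (-0.48) and Ndufs1 (-0.34) lower, where 11.0% of all genes were called, 7.09% higher and 3.96% lower. Without it the CB median was -0.05.

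The round spermatid and CB libraries are separate, but whether they came from different animals is not stated. Their changes of homozygotes against heterozygotes are laid side by side here. Of the 78 members 31 were above 0 in both kinds, 25 below 0 in both, 13 above in round spermatids and below in CB RNA, and 9 the reverse. No such count was taken over all genes, so these counts cannot set the members apart. Of the 22 called higher with 4 round spermatid libraries, 19 were above 0 in CB RNA (86.4%), against 77.6% of all 2691 genes called higher and measured there. Of the 13 called lower, 12 were below 0 in CB RNA (92.3%), against 65.6% of 2626 genes. Without heterozygous CB library 1 the counts were 14 of 22 (63.6%, against 73.7% of all genes) and 11 of 13 (84.6%, against 61.7%). The CB changes were small, with medians of 0.16 for the 22 and -0.14 for the 13, or 0.064 and -0.20 without heterozygous CB library 1. In both kinds the members' change rose with transcript length, with Spearman rho 0.32 in round spermatids and 0.48 in CB RNA. Members under 600 bases had medians of -0.11 and -0.14, and members of 1000 bases or more 0.11 and 0.15. The part of length in these shared directions was not tested.

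**Figure D5:**
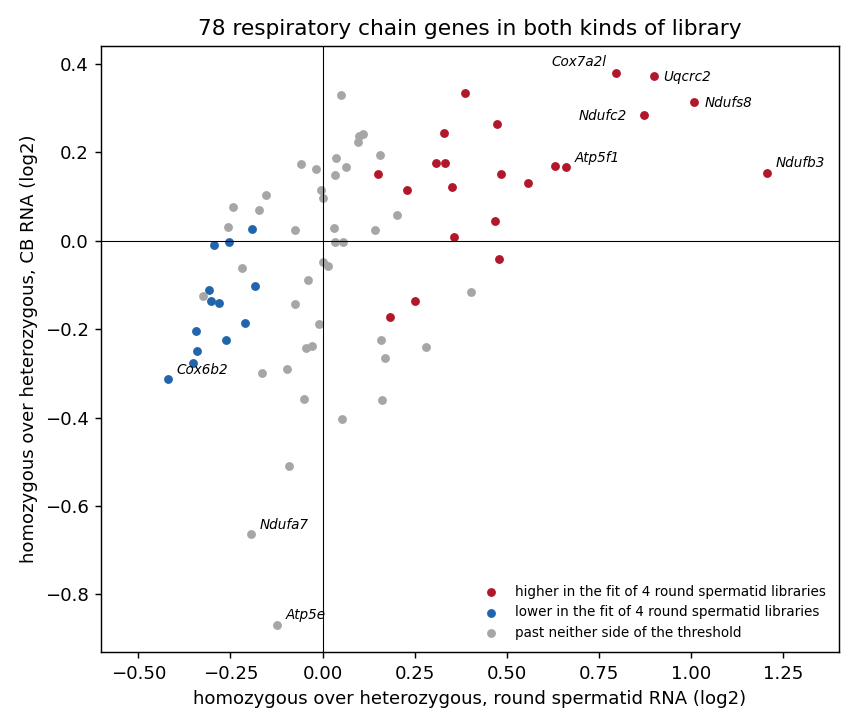
Log2 change of homozygotes over heterozygotes in CB RNA against that in round spermatid RNA for 78 respiratory chain genes; red and blue mark members called higher or lower with 4 round spermatid libraries. Of the 22 red points 19 lie above 0 in CB RNA, and 12 of the 13 blue ones lie below it.

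The difference between the genotype effects in CB and in round spermatid RNA was tested in 1 fit of 12 libraries. EdgeR called 0 of the 80 members, where it called 0.209% of all genes, and DESeq2 called 0, where it called 0.97%. In edgeR 2 members stood at an unadjusted p under 0.05, both with the genotype effect in CB RNA below that in round spermatids. The homozygous effect in CB RNA minus that in round spermatids was -0.99 for Ndufb3 (SE 0.349), -0.69 for Atp5e and -0.64 for Ndufs8 on the log2 scale, and 0.95 for Ndufa1, 0.76 for Ndufb11 and 0.37 for Cox8a. For Uqcrc2 it was -0.47 (SE 0.212, adjusted p = 0.55).

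Few genes around the chain passed the test. Of all genes 2.86% passed in homozygotes against wild type, 1.73% against heterozygotes and 1.72% in CB RNA. Of 48 assembly factor genes 1 rose in homozygous round spermatids against wild type, 1 against heterozygotes, and 1 of 49 rose in CB RNA, in each case Ecsit, which encodes an assembly factor of complex I that also acts in immune signalling. In the comparison with wild type DESeq2 called 5, with Ecsit and Timmdc1 higher and Cox17, Ndufaf8 and Pet100 lower. The medians of the list were -0.29, -0.02 and -0.06 in these comparisons. Ecsit had 82.9 and 86.6 CPM in homozygous round spermatids, 39.1 and 39.2 in heterozygous and 28.0 and 31.5 in wild-type ones, a log2 change of 1.51 against wild type (adjusted p = 0.0089) and 1.11 against heterozygotes (adjusted p = 0.0248). In CB RNA it had 28.9, 29.1 and 30.7 CPM in homozygotes and 18.2, 16.4 and 17.0 in heterozygotes (log2 0.79, adjusted p = 0.00788). The groups did not overlap in any of these comparisons. The call was lost without any 1 homozygous or heterozygous round spermatid library and without any 1 homozygous CB library, with adjusted p-values up to 0.180 against wild type, 0.386 against heterozygotes and 0.0707 in CB RNA. It was also lost against wild type in a fit of the 4 compared libraries (adjusted p = 0.0736) and against heterozygotes with the replicate block (adjusted p = 0.0641), while the log2 change stayed between 1.43 and 1.61, 1.06 and 1.14, and 0.75 and 0.82.

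Of 19 genes of electron carriers and ADP/ATP carriers 1 fell in each homozygous comparison, Etfb, the beta subunit of the electron transfer flavoprotein that feeds electrons from fatty acid oxidation to ubiquinone. It had 4.93 and 5.24 CPM in homozygous round spermatids, 17.9 and 17.2 in heterozygous and 19.1 and 17.1 in wild-type ones. In CB RNA it had 6.92, 6.87 and 8.14 CPM in homozygotes and 12.7, 15.0 and 13.4 in heterozygotes. Its log2 changes were -1.83 against wild type (adjusted p = 0.0089), -1.79 against heterozygotes (adjusted p = 0.0188) and -0.90 in CB RNA (adjusted p = 0.0145). These calls were lost without any 1 homozygous or heterozygous round spermatid library, without any 1 homozygous CB library, and without heterozygous CB library 2 or 3, with adjusted p-values up to 0.191, 0.351 and 0.125. They were also lost against wild type in a fit of the 4 compared libraries (adjusted p = 0.0736) and against heterozygotes with the replicate block (adjusted p = 0.0604). Cyct (log2 0.38 in homozygous over heterozygous round spermatids, adjusted p = 0.712), Cycs (-0.16, adjusted p = 0.84) and Slc25a31 (0.07, adjusted p = 0.88) did not pass. DESeq2 called Etfb lower in each homozygous comparison, and Coq6 lower as well against wild type.

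Of 18 regulators of mitochondrial biogenesis and of 19 citric acid cycle genes 0 passed in any of the 4 genotype comparisons by edgeR, with at most 5 of either list at an unadjusted p under 0.05. DESeq2 called 1 of them, the fumarase gene Fh1, higher in homozygous round spermatids against both wild type and heterozygotes. Of 19 glycolysis genes 0 passed in round spermatids by edgeR or DESeq2, with at most 6 at an unadjusted p under 0.05, and 1 fell in CB RNA, Gapdhs, the sperm form of glyceraldehyde-3-phosphate dehydrogenase, with 214, 218 and 225 CPM in homozygotes and 275, 336 and 313 in heterozygotes (log2 -0.49, adjusted p = 0.0481). It kept the call in 5 of 12 alternatives, and lost it without any 1 homozygous CB library and without heterozygous library 2 or 3 (adjusted p up to 0.286), with the length trend removed (adjusted p = 0.0864) and with the replicate block (adjusted p = 0.150). DESeq2 called 3 glycolysis genes lower in CB RNA, Gapdhs, Hk1 and Pgk2. The mitochondrially encoded subunits are listed in the CB files alone. All 13 were below 0 in homozygous CB RNA, with a median of -0.87, and 2 fell, both genes of complex I, where DESeq2 called 4 lower (mt-Cytb, mt-Nd2, mt-Nd4l and mt-Nd5). Mt-Nd2 had 49.1, 61.8 and 29.0 CPM in homozygotes and 292, 109 and 142 in heterozygotes (log2 -1.96, adjusted p = 0.0241). Mt-Nd4l had 10.5, 9.65 and 8.63 CPM in homozygotes and 24.4, 24.3 and 13.1 in heterozygotes (log2 -1.10, adjusted p = 0.0374). Both were lower in all 3 homozygous libraries than in any heterozygous one. The calls were lost without any 1 homozygous library, for mt-Nd2 also without heterozygous library 3 and for mt-Nd4l without library 2 (adjusted p up to 0.129 and 0.187). For mt-Nd4l it was also lost with the length trend removed (adjusted p = 0.0866).

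Summed marker levels of some germ cell stages and other testis cells differed between genotypes beside these values, and others overlapped. In round spermatid RNA 9 spermatocyte markers summed to 8149 and 7955 TPM in homozygotes, 8483 and 8466 in heterozygotes, and 7057 and 8704 in wild type. The 7 spermatogonia markers summed to 70.5 and 118, 63.9 and 100, and 60.7 and 53.7 TPM in the same order. In CB RNA the spermatocyte sum was 3548 to 3843 in homozygotes and 2675 to 3453 in heterozygotes. The summed TPM of 10 markers of round spermatids and later stages was 49740 and 49310 in homozygotes, 46255 and 48113 in heterozygotes, and 74503 and 47236 in wild type. Only wild-type library 1 stood apart in this sum. By gene, all 10 were below 0 in homozygotes against wild type with both wild-type libraries (median log2 -0.56). EdgeR called 0 of them there, where it called 2.86% of all genes, and DESeq2 called Acrv1 and Spaca1 lower (2.81% of all genes lower). In CB RNA the sum was 6535 to 6957 in homozygotes and 9390 to 10870 in heterozygotes. There edgeR called 5 of these 10 lower (Spaca1, Tssk6, Prm1, Odf1 and Crisp2), where it called 1.72% of all genes. Of 8 immune markers, whose sum was 44.1 to 46.8 TPM in homozygous, 29.3 to 34.1 in heterozygous and 16.0 to 19.3 in wild-type round spermatids, Cd74 and Lyz2 rose against wild type. In CB RNA the immune sum was 18.1 to 27.3 TPM in homozygotes and 7.08 to 15.7 in heterozygotes, and Cd74 rose. Of 6 peritubular and vascular markers, at 23.4 to 27.0 TPM in homozygous, 17.0 to 18.7 in heterozygous and 10.0 to 13.4 in wild-type round spermatids, Acta2 and Dcn rose against wild type. Of 6 Leydig cell markers, at 52.7 to 53.9, 26.0 to 28.5 and 14.3 to 15.8 TPM in the same order of genotypes, Insl3 rose against wild type, with 1 marker at 0 in both heterozygous and in 1 wild-type library. In CB RNA their sum was 510 to 565 TPM in homozygotes and 189 to 388 in heterozygotes. The 9 Sertoli cell markers summed to 21.9 to 24.3 TPM in homozygotes, 38.6 to 39.1 in heterozygotes and 36.6 to 40.6 in wild type, and Clu and Aard fell against wild type. The part of other cells in the members' values was not tested. No member overlapped any of the 214 piRNA clusters whose small RNA counts belong to the study.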

How the data were processed

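Per the labels' protocols, a NEBNext Ultra kit and 1 ug of input served for round spermatid RNA, and a strand-specific kit and 25 ng, with neither polyA selection nor ribosome depletion, for CB RNA. The submitters' processing notes name Trim Galore and mm10. The sources used here name no quantifier or aligner. The authors deposited, per the file headers, expected counts and TPM per Ensembl gene and, for isoforms, TPM and the percent of the gene's level. The authors' counts of small RNA reads per piRNA cluster served only for the positions of clusters.

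Expected counts were rounded to whole numbers and tested with edgeR 4.0.16 in R 4.3.3 (quasi-likelihood test with TMM normalization after filterByExpr, Benjamini-Hochberg adjustment over all genes tested, threshold 0.05). One fit held the 6 round spermatid libraries, another the 6 CB libraries, and a joint fit of all 12 gave the interaction. CPM are scaled to the TMM effective library size. Genes were compared with each other in TPM and genotypes in CPM. Alternatives were DESeq2 1.42.0, its size factors in edgeR, no filter on low counts, the replicate number as a block, removal of the trend with transcript length, the compared libraries alone, and leaving out each library in turn, while in CB RNA the mitochondrially encoded genes were also left out. The fits were tested on simulated counts. Precision is given as the SD over the libraries of a group or as the SE of a log2 change. In edgeR that SE is the absolute log2 change divided by the square root of the test's F statistic. It therefore rests on the spread shared by all groups in the fit.

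Members named are those that passed, the 3 highest and 3 lowest changes of each comparison, the tissue-restricted forms with their partners, the highest member of each complex and those next to the TPM threshold. Other members were named after their values were seen. The members and lists were chosen with earlier results of these data known. Symbols were found for all but 260 genes, and gene positions and start-site windows are those of RefSeq on GRCm38.p6. Per-library sequence variation and the small RNA counts themselves were not used here.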

Additional observations from a re-analysis of the deposited data

Results flagged for a closer look

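For Ddx4 itself the change in homozygotes against heterozygotes was -0.16 in CB RNA and -1.69 in round spermatid RNA (log2), and the interaction in edgeR put the gap at 1.59 (SE 0.224, adjusted p = 0.0122). None of the 80 respiratory chain genes passed that test.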

How the results depend on the processing

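Of 1181 values of named members under the alternatives, 1027 kept their direction and their side of the threshold, 92 came to pass it and 11 no longer passed. All 11 are values of Uqcrc2, the only member called in the main fits. It kept its call in 6 of 12 alternatives against wild type and in 7 of 12 against heterozygotes. Another 51 changed sign, 20 of them without wild-type library 1, and 7 of the 51 passed the threshold in the alternative. Those 7 are as follows. Against wild type, homozygous Cox8c stood at 0.35 and Atp5h at 0.34 with the length trend removed. Without wild-type library 1, Cox7a2 stood at 0.24, Cox8c at 0.33 and Atp5h at 0.39 in homozygotes over wild type. Without wild-type library 2, Cox4i1 stood at -0.24 in homozygotes over wild type and Atp5f1 at -0.19 in heterozygotes over wild type. Over the libraries left out in turn, the other ends of these ranges were -1.36 for Cox7a2, -1.03 for Cox8c, -0.65 for Atp5h, 0.42 for Cox4i1 and 0.31 for Atp5f1. The cause was not tested.

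Members called in homozygous against wild-type round spermatids numbered 5 with DESeq2, 21 without the filter (3 higher and 18 lower), 14 with the length trend removed (10 higher and 4 lower), and 0 with the compared libraries alone. Against heterozygotes they numbered 4, 5, 12 and 35 under the same alternatives. In CB RNA 2 were called without the filter, Atp5e and Ndufa7, both lower, where 2.2% of all genes were called and 0.977% called lower. With the length trend removed the members' median was -0.10 in homozygotes and -0.10 in heterozygotes over wild type, and 0.13 in CB RNA. Of all genes, DESeq2, no filter, removal of the length trend and the compared libraries alone gave 1287, 1692, 2433 and 15 calls in homozygotes against wild type (510 in the design used). Against heterozygotes they gave 788, 912, 1783 and 5577 (308). DESeq2 and no filter gave 5 and 6 calls in heterozygotes against wild type (0), and 578 and 882 in CB RNA (332). For the interaction DESeq2, no filter and the length trend gave 143, 191 and 93 (46). As a share of counts in place of TPM, the members took 0.552% in homozygous, 0.508% in heterozygous and 0.694% in wild-type round spermatids, and 0.135% in homozygous and 0.128% in heterozygous CB RNA.

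Leaving out 1 library at a time gave 0 to 70 members called in homozygotes and 0 to 70 in heterozygotes against wild type, 0 to 35 in homozygotes against heterozygotes, 0 to 4 in CB RNA and 0 for the interaction. For all genes the ranges were 0 to 8488, 0 to 7901, 0 to 5608, 51 to 2213 and 2 to 188. The members' medians ranged from -0.83 to 0.084, -0.91 to 0.023, -0.01 to 0.10, -0.048 to 0.034 and -0.12 to 0.03 in the same order.

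Whether the replicate numbers pair the samples is not stated in the labels. With 2 libraries a group the deviations from the mean mirror each other, so the round spermatid correlations below cannot decide it. Same-numbered round spermatid libraries correlated in their deviations from the group mean by -0.026 for homozygous and heterozygous, 0.18 for homozygous and wild type and -0.15 for heterozygous and wild type, and the CB pairs by 0.00094, -0.21 and -0.17. With the replicate number as a block 0 members were called in any comparison, and the calls over all genes were 182 and 0 against wild type for homozygotes and heterozygotes, 12 for homozygotes against heterozygotes, 163 in CB RNA and 2 for the interaction. The members' medians under the replicate block were -0.44, -0.50, 0.02, 0.01 and 0.01.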
